A study of Homo sapiens with 5 samples.

Results

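The genes described here are 47 genes of the proteasome and of ubiquitin processing, chosen by symbol from a table of 28442 gene rows. They comprise the subunits of the 20S core and of the 19S cap, the proteasome activators, inhibitor and maturation protein, and a set of ubiquitin and VCP factors. Not every gene listed with the cap is a subunit of it, and PSMD10, for example, is an assembly chaperone. The immunoproteasome genes PSMB8 and PSMB9 were not members. Each of the 47 symbols was found in 1 row, and all 47 passed the filter on low counts.

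RNA was sequenced from TOV21G, an established line of human ovarian clear cell carcinoma, in a study of how ovarian cancers with mutated ARID1A depend on the deacetylase HDAC6. There were 5 libraries, 1 for each treatment. The repressed HDAC6 group held cells with an HDAC6 short hairpin (shHDAC6) and cells given ACY1215 or CAY10603, which are inhibitors directed at HDAC6. The control group held cells with a control hairpin (shControl) and cells given the drug vehicle, whose column is headed DMSO. The shHDAC6 and shControl libraries formed the shRNA experiment, in which infected cells were selected in puromycin, and the other 3 libraries formed the drug experiment. More than 1 HDAC6 hairpin is named in the labels, without saying which gave the library, and the labels state no dose or time. A single pair of libraries has no replicates, so differences within a pair carry no test, and their intervals cover counting error only.

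The proteasome is the main protease for proteins tagged with ubiquitin chains. Its 20S core is a barrel of alpha rings, which gate entry, and beta rings, which hold the proteolytic sites, and its 19S cap binds, deubiquitinates and unfolds substrates. VCP, an ATPase, extracts ubiquitinated proteins from membranes and complexes, and HDAC6, besides deacetylating tubulin, binds ubiquitin and VCP and takes part in moving ubiquitinated protein aggregates.

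Sequences of the promoters of 5 members are given to show what the windows hold in members that differed in different ways. POMP, USP14 and PSMD1 differed in opposite directions between the hairpin pair and the ACY1215 pair, PSMD12 was among the higher members with ACY1215, and UBB was the lower one. Each is the 250 bases before a transcription start, 5′ to 3′ on the strand of the gene, from RefSeq on GRCh38.p14. Capitals mark the core of the antioxidant response element, TGACNNNGC, searched on both strands. NFE2L1 and NFE2L2, transcription factors that control proteasome genes, bind elements of this kind.
POMP (chr13:28658880-28659129, + strand): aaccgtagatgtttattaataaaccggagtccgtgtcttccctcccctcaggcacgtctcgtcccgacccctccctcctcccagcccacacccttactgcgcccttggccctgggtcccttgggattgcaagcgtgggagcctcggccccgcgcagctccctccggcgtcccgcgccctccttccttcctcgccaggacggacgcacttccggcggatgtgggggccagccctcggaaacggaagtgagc
USP14 (chr18:158307-158556, + strand): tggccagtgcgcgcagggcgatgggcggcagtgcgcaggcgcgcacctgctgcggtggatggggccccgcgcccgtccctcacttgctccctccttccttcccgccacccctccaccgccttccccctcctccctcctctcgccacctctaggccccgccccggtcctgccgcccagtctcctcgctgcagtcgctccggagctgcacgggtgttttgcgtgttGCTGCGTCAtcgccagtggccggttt
PSMD1 (chr2:231056617-231056866, + strand): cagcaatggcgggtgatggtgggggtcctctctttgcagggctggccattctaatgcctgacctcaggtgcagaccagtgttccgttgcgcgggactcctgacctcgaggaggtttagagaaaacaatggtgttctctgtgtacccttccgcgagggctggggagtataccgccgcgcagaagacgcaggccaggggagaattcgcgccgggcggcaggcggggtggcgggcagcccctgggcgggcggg
PSMD12 (chr17:67366578-67366827, − strand): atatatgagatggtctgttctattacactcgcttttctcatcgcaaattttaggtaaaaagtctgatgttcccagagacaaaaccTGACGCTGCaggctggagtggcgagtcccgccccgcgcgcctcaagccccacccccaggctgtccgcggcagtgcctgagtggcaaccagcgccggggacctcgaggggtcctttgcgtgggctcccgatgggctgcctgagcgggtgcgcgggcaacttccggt
UBB (chr17:16381040-16381289, + strand, the first of its 2 windows): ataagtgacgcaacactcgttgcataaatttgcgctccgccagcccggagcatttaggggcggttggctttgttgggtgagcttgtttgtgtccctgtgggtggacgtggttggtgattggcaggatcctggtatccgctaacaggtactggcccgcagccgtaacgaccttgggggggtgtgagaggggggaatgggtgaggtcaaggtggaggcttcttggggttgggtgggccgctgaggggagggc

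The USP14 promoter held 1 match to the core, on the other strand and starting 26 bases before the gene start. The PSMD12 promoter held 1 match on the strand of the gene, starting 165 bases before it. No match was in the windows shown for POMP, PSMD1 and UBB, whereas the other UBB window held one. RefSeq promoters were matched for 41 of the 47 members by gene ID. Of these, 15 held the core (36.6%), against 13.2% of all 27305 genes with a promoter. The CCAAT box, searched on both strands, was in 20 of the 41 (48.8%), against 37.0% of all genes. In ACY1215 against vehicle the median log2 fold was 0.10 for the 15 members with the core and 0.19 for the 26 without it. In CAY10603 against vehicle these medians were 0.084 and 0.042, and in shHDAC6 against shControl -0.039 and -0.052. A match of letters is a description of the sequence only.

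The total count per library was between 43498805 and 57442767. Levels are given as CPM, counts scaled to library size, with TMM factors, a normalization that assumes most genes do not differ, and folds as log2 of such values with a prior count of 2. HDAC6, the target of the hairpin, was at 29.3 CPM in shHDAC6, against 49.0 CPM in shControl, a log2 fold of -0.74. It was at 32.9 CPM in ACY1215 and 47.9 CPM in CAY10603, against 50.1 CPM in vehicle. Over both groups its log2 fold was -0.50 (SE 0.21, edgeR adjusted p = 1.00). Epithelial markers summed to between 343 and 461 CPM per library, through KRT8, KRT18 and EPCAM. The others were low: CDH1 was at most at 1.35 CPM, KRT7 at 0.82 CPM and KRT19 at 5.60 CPM. Of the clear cell markers, which summed to between 351 and 533 CPM, NAPSA was at most at 0.40 CPM. Leukocyte, endothelial and erythroid lists summed to at most 2.22 CPM, and HBA2 had a count of 0 in all 5 libraries. The fibroblast list, mainly COL1A2, summed to 37.1 CPM in ACY1215, 36.5 CPM in CAY10603 and 26.0 CPM in vehicle, and to 24.9 CPM in shHDAC6 and 27.6 CPM in shControl, and its part in the results below was not tested. In RNA of bulk cultures, fewer cells of a type and less RNA per cell cannot be told apart.

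Levels per length, as the authors' FPKM averaged over the 5 libraries, differed widely among the members. UBB, which encodes ubiquitin as a chain of repeats, was highest at 603 FPKM. The alpha subunits PSMA6 and PSMA4 followed at 396 and 393 FPKM, then PSMA7 at 251 FPKM and the 11S activator subunit PSME1 at 235 FPKM. At the low end were PSMB2 at 5.99 FPKM, the activator PSME4 (PA200) at 9.77 FPKM, the deubiquitinase USP14 at 10.2 FPKM and the VCP cofactor NPLOC4 at 14.3 FPKM. Subunits that stand in equal number in the 20S core thus differed in FPKM. Among the beta subunits PSMB7 (177 FPKM) was 29.5 times PSMB2, and among the alpha subunits PSMA6 was 9.74 times PSMA5 (40.7 FPKM). These ratios depend on the length used for each gene. In CPM, which is not divided by length, the genes lay closer. The mean was 148 CPM for PSMB7 and 27.5 CPM for PSMB2, and 330 CPM for PSMA6 and 148 CPM for PSMA5. Among the ATPases the highest was PSMC1 at 127 FPKM and the lowest PSMC5 at 20.02 FPKM. The FPKM ranges of PSMA6 (344 to 428) and PSMA4 (361 to 418) over the 5 libraries overlapped, and PSMB2 stayed below every other member, at 5.42 to 6.52 FPKM. Of the transcript sequence of PSMA6, 56.6% was shared with other genes in stretches of 50 bases, and 49.4% of that of PSMA2, so these levels are uncertain. Sharing was 34.5% for PSMD9, 29.7% for PSMA1, 28.4% for PSMC1 (mostly with PSMC1P1), 23.7% for PSMC6, 17.3% for PSMD4 (with PIPSL) and 13.1% for UBB (mostly with UBBP4).

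**Figure D1:**
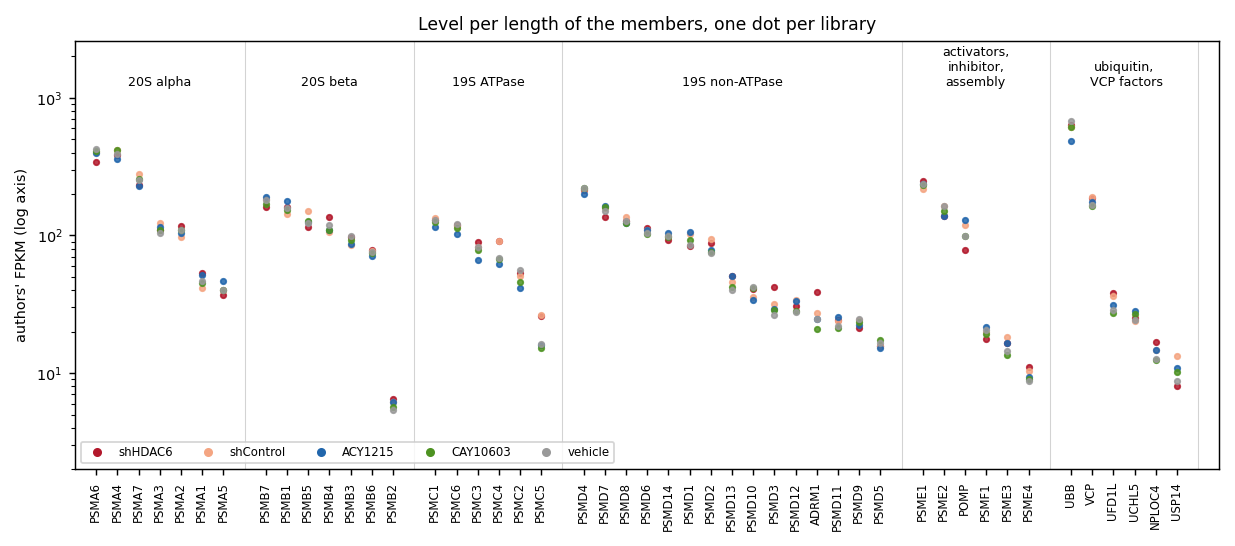
Authors' FPKM of the 47 members on a log axis, with 1 dot per library (shHDAC6, shControl, ACY1215, CAY10603 and vehicle), ordered within 6 role classes by the mean. The dots of a gene lie close together while genes of 1 class lie far apart, as for UBB (mean 603 FPKM) and USP14 (mean 10.2 FPKM).

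No member passed the test in repressed HDAC6 against control. In edgeR's quasi-likelihood fit over 13449 genes with experiment type as a covariate, 0 genes were called at an adjusted p of 0.05 (0% of the genes tested). At an unadjusted p of 0.05 the fit gave 100 genes (0.744%), of which 0 were members, and DESeq2 gave 112 and limma-voom 121, again with 0 members each. The 47 members had log2 folds of -0.14 to 0.28 with a median of 0.03, and 29 were above 0, against 50.4% of all genes. The lowest member p belonged to PSMD3, a scaffold subunit of the 19S lid named here after its values were seen, with a log2 fold of 0.28 (SE 0.13, edgeR adjusted p = 1.00). PSMD3 was at 84.1 CPM in shHDAC6, 61.3 CPM in ACY1215 and 57.7 CPM in CAY10603, against 65.2 CPM in shControl and 51.1 CPM in vehicle. Each treated library was above the control of its own experiment, with log2 folds of 0.37, 0.26 and 0.18, while ACY1215 and CAY10603 lay below shControl. The alpha subunit PSMA1 had a log2 fold of 0.24 (SE 0.16) and the lid subunit PSMD13 one of 0.22 (SE 0.15), both with an edgeR adjusted p of 1.00. The folds of USP14 and POMP were -0.13 (SE 0.26) and -0.09 (SE 0.24), and their sign turned without shControl or without shHDAC6, as given in the closing section. With experiment type as a covariate, those fits compare only the drug libraries. Between 3 treatments and 2 controls with 2 residual degrees of freedom, differences between the treatments count as spread.

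In shHDAC6 against shControl, 8 of the 47 members were at least 0.32 apart on the log2 scale, the mark used for all pairs, against 23.3% of the 10740 genes whose mean reached 5 CPM. PSMA1, PSMB4, PSMD3 and ADRM1 were higher and PSMB5, PSMD1, POMP and USP14 lower in the shHDAC6 library, which is 4 members in each direction, against 10.9% of all genes higher and 12.4% lower by as much. Of these, POMP and USP14 were also past 1.5-fold, against 5.10% of all genes in either direction and 2.52% on the lower side. The median over the 47 members was -0.04, beside -0.02 over all genes, with 19 members higher against 47.1% of all genes. Among the 6647 genes at or above the mean level of the lowest member, the median was -0.06 and 40.6% were higher. Scaled by total count, 25 members were higher, against 54.7% of all genes, and the members' median was 0.02 and that of all genes 0.03.

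In ACY1215 against vehicle, 10 members were at least 0.32 apart on the log2 scale, against 35.3% of all genes, and 0 were past 1.5-fold, against 13.7%. PSMA5, PSMD1, PSMD11, PSMD12, PSMD13, POMP, USP14, UCHL5 and NPLOC4 were higher and UBB was lower in the ACY1215 library, against 17.9% of all genes higher and 17.4% lower by as much. The median was 0.12 over the members and 0.02 over all genes, with 33 members higher against 51.7% of all genes. Among genes at or above the mean level of the lowest member, the median was 0.03 and 54.4% were higher. Total-count scaling moved the median of all genes to -0.10 and the members' median to -0.000746, with 23 members higher against 37.3% of all genes. Against shControl in place of vehicle the members' median was -0.060 and that of all genes -0.061. With the authors' FPKM, 4 members were past a log2 fold of 0.32, against 36.4% of all genes.

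In CAY10603 against vehicle, 0 members were past a log2 fold of 0.32, against 6.70% of all genes. The folds were between -0.15 and 0.28 with a median of 0.04, beside 0.02 over all genes, and 32 members were higher, against 55.9% of all genes. Genes at or above the mean level of the lowest member also had a median of 0.04, and 62.5% of them were higher. Scaled by total count, 18 members were higher, against 38.0% of all genes, and the members' median was -0.03 and that of all genes -0.04. The ACY1215 and CAY10603 pairs share the vehicle library, so a value specific to that library enters both. Between the inhibitors, PSME3 and POMP were past a log2 fold of 0.32, both lower in CAY10603 than in ACY1215, against 29.3% of all genes in either direction and 13.9% on the lower side. There, 17 members were higher in CAY10603, against 50.2% of all genes, with a median of -0.09 beside 0.00 over all genes. For PSME3 the log2 fold between CAY10603 and ACY1215 was -0.32 (-0.41 to -0.24), and for POMP it was -0.44 (-0.49 to -0.39). The other 45 members differed by less.

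The control libraries also differed from each other. In shControl against vehicle, 12 members were past a log2 fold of 0.32, all higher in shControl, against 26.1% of all genes in either direction and 16.5% in that direction. The median of the members was 0.14, beside 0.07 over all genes, and 38 were higher, against 61.2% of all genes. For genes at or above the mean level of the lowest member, the median was 0.09 and 65.2% were higher. Past the mark were PSMB5, PSMC4, PSMC5, PSMD1, PSMD2, PSMD3, PSMD12, PSME3, PSME4, POMP, USP14 and VCP, of which PSMC5 and USP14 were past 1.5-fold, against 7.08% of all genes. Under upper-quartile scaling 6 of the members passed, against 24.7% of all genes, and under total-count scaling 5, against 24.4%. The vehicle library was the lowest of the 5 for 15 members (31.9%), against 21.2% of all genes. The highest library was shHDAC6 for 16 members (34.0%, against 26.7% of all genes) and shControl for 15 (31.9%, against 23.7%). In shHDAC6, 19 members were above both controls and 14 below both, against 34.4% and 30.2% of all genes. In ACY1215 these numbers were 18 and 11, against 32.6% and 39.2%, and in CAY10603 9 and 12, against 26.3% and 28.1%. The remaining members lay between the controls, so their sign turned with the control used.

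**Figure D2:**
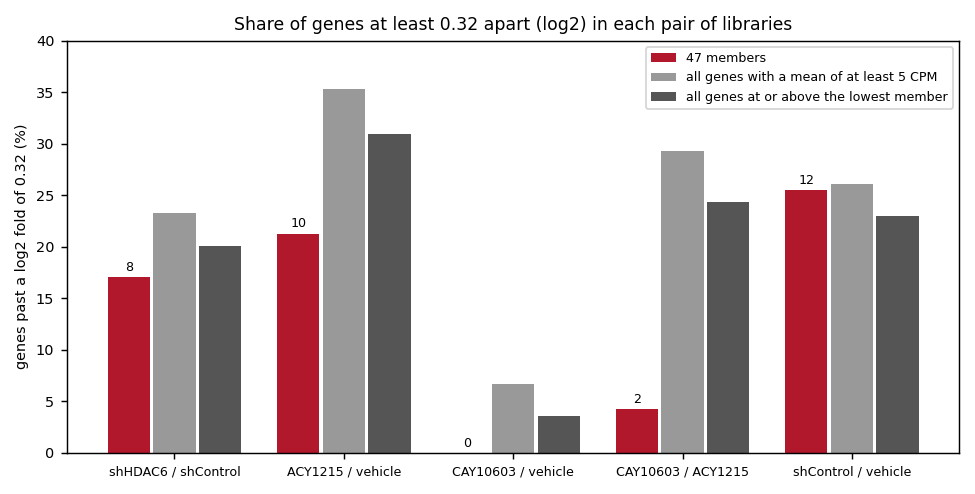
Share of genes at least 0.32 apart on the log2 scale (percent) in 5 pairs of libraries, for the 47 members (with their number above the bar), for all genes whose mean reached 5 CPM, and for the 6647 genes at or above the mean of the lowest member. The members' share is below that of both gene sets in every pair but shControl against vehicle, where 12 members lie between the 26.1% and 23.0% of those sets. In the set at or above the lowest member the share is 20.1% for shHDAC6, 31.0% for ACY1215, 3.58% for CAY10603 and 24.4% for CAY10603 against ACY1215.

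Among the alpha subunits of the core, 2 were higher and 5 lower in the hairpin pair, with PSMA1 the highest. PSMA1 was at 57.2 CPM in shHDAC6, against 43.2 CPM in shControl, and at 55.2 CPM in ACY1215 and 47.2 CPM in CAY10603, against 46.97 CPM in vehicle. The log2 fold of PSMA1 was 0.40 (95% counting interval 0.33 to 0.48) for shHDAC6, 0.23 for ACY1215 and 0.01 for CAY10603. PSMA2, the other one higher in the hairpin pair, had 0.27 (0.23 to 0.32) for shHDAC6. The other end was PSMA7, at 203 CPM in shHDAC6, against 241 CPM in shControl (log2 fold -0.25), with folds of -0.02 for ACY1215 and 0.10 for CAY10603. PSMA5 was at 176 CPM in ACY1215 and 147 CPM in CAY10603, against 139 CPM in vehicle. Its ACY1215 level was the highest of the 5, since shHDAC6 had 132 CPM and shControl 148 CPM. The class medians were -0.15 for shHDAC6, 0.04 for ACY1215 and 0.08 for CAY10603.

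Of the 3 beta subunits that carry the proteolytic sites, PSMB5, the chymotrypsin-like one and the main target of bortezomib, was at 128 CPM in shHDAC6, against 167 CPM in shControl. It was at 139 CPM in ACY1215 and 140.2 CPM in CAY10603, against 129 CPM in vehicle. The shControl library alone was high, and shHDAC6 differed from vehicle by a log2 fold of -0.01, against -0.38 from shControl. PSMB6, the caspase-like subunit, was between 48.8 and 54.2 CPM in all 5 libraries, and its log2 folds were 0.05 in the hairpin pair, 0.02 with ACY1215 and 0.03 with CAY10603. PSMB7, the trypsin-like subunit, had -0.17, 0.19 and -0.01 in the same pairs. PSMB4, a beta subunit without a proteolytic site, was at 104 CPM in shHDAC6, against 80.5 CPM in shControl, and at 84.6 CPM in ACY1215 and 81.7 CPM in CAY10603, against 85.4 CPM in vehicle. Only the shHDAC6 library was high, with a log2 fold of 0.37 (0.32 to 0.43). PSMB2 had the highest ACY1215 fold of the class at 0.31, and PSMB3 the lowest at -0.09.

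The 6 ATPases, which unfold substrates and open the core, had the narrowest range of folds among the 6 role classes in each treatment pair. Their medians were -0.008 for shHDAC6, -0.08 for ACY1215, where 5 of the 6 were lower, and -0.02 for CAY10603. Their log2 folds were between -0.07 (PSMC1) and 0.11 (PSMC3) for shHDAC6, between -0.20 (PSMC3) and 0.04 (PSMC5) for ACY1215, and between -0.13 (PSMC2) and 0.04 (PSMC4) for CAY10603. With the authors' FPKM the ACY1215 fold of PSMC2 was -0.42, beside -0.11 from counts. The larger difference in this class lay between the experiments. PSMC5 was at 32.8 CPM in shHDAC6 and 33.7 CPM in shControl, and at 20.3 CPM in ACY1215, 19.1 CPM in CAY10603 and 19.8 CPM in vehicle. PSMC4 was at 159 CPM in shHDAC6 and 160.2 CPM in shControl, and at 111 CPM in ACY1215, 117 CPM in CAY10603 and 114 CPM in vehicle. Both libraries of the shRNA experiment lay above all 3 of the drug experiment for these 2 genes, and shControl against vehicle gave log2 folds of 0.76 for PSMC5 and 0.49 for PSMC4. Infection, selection and experiment cannot be told apart here.

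Among the 15 other members listed with the 19S cap, ADRM1, a ubiquitin receptor that also anchors the deubiquitinase UCHL5, was at 46.6 CPM in shHDAC6, against 33.6 CPM in shControl. It was at 30.8 CPM in ACY1215 and 25.6 CPM in CAY10603, against 28.4 CPM in vehicle. The shHDAC6 library was the highest of the 5, with log2 folds of 0.47 (0.39 to 0.56) against shControl and 0.71 against vehicle, and the inhibitors gave 0.12 and -0.15. PSMD1, a large scaffold of the cap base, was at 259.7 CPM in shHDAC6, against 328 CPM in shControl, and at 345 CPM in ACY1215 and 293 CPM in CAY10603, against 257 CPM in vehicle. Its log2 folds were -0.34 for shHDAC6, 0.43 for ACY1215 and 0.19 for CAY10603. Against the control of the other experiment PSMD1 gave 0.02 for shHDAC6, 0.07 for ACY1215 and -0.16 for CAY10603, and shControl was high and vehicle low for this gene. The lid subunit PSMD13 was at 82.4 CPM in ACY1215 and 66.8 CPM in CAY10603, against 60.8 CPM in vehicle, with a fold of 0.44 for ACY1215. PSMD12, another lid subunit, was at 55.7 CPM in ACY1215 and 45.0 CPM in CAY10603, against 42.3 CPM in vehicle. Here shControl, at 54.6 CPM, was about as high as ACY1215. PSMD10 (gankyrin), an assembly chaperone of the base, was lowest of the class with ACY1215, at a log2 fold of -0.21. The class median was -0.04 for shHDAC6, 0.18 for ACY1215 and 0.06 for CAY10603.

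POMP, the maturation protein that guides assembly of the core, was at 101 CPM in shHDAC6, against 154 CPM in shControl. It was at 173 CPM in ACY1215 and 127 CPM in CAY10603, against 121 CPM in vehicle. The shHDAC6 library was the lowest of the 5 and the ACY1215 library the highest. The log2 folds were -0.61 (-0.66 to -0.56) for shHDAC6, 0.52 (0.47 to 0.57) for ACY1215 and 0.08 (0.02 to 0.13) for CAY10603. Against the control of the other experiment they were -0.26 for shHDAC6 and 0.17 for ACY1215, the same signs with smaller size, and -0.27 for CAY10603, the opposite sign. PSME3, the nuclear activator PA28 gamma, was at 55.9 CPM in ACY1215 and 44.6 CPM in CAY10603, against 45.3 CPM in vehicle, and at 53.7 CPM in shHDAC6, against 60.8 CPM in shControl. PSMF1 (PI31), named as a proteasome inhibitor, differed by a log2 fold of -0.17 in the hairpin pair, 0.24 with ACY1215 and -0.06 with CAY10603, and PSME4 by 0.00, 0.24 and 0.13. The 11S subunits PSME1 and PSME2 had log2 folds of 0.21 and -0.19 for shHDAC6 and of 0.10 and -0.14 for ACY1215.

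**Figure D3:**
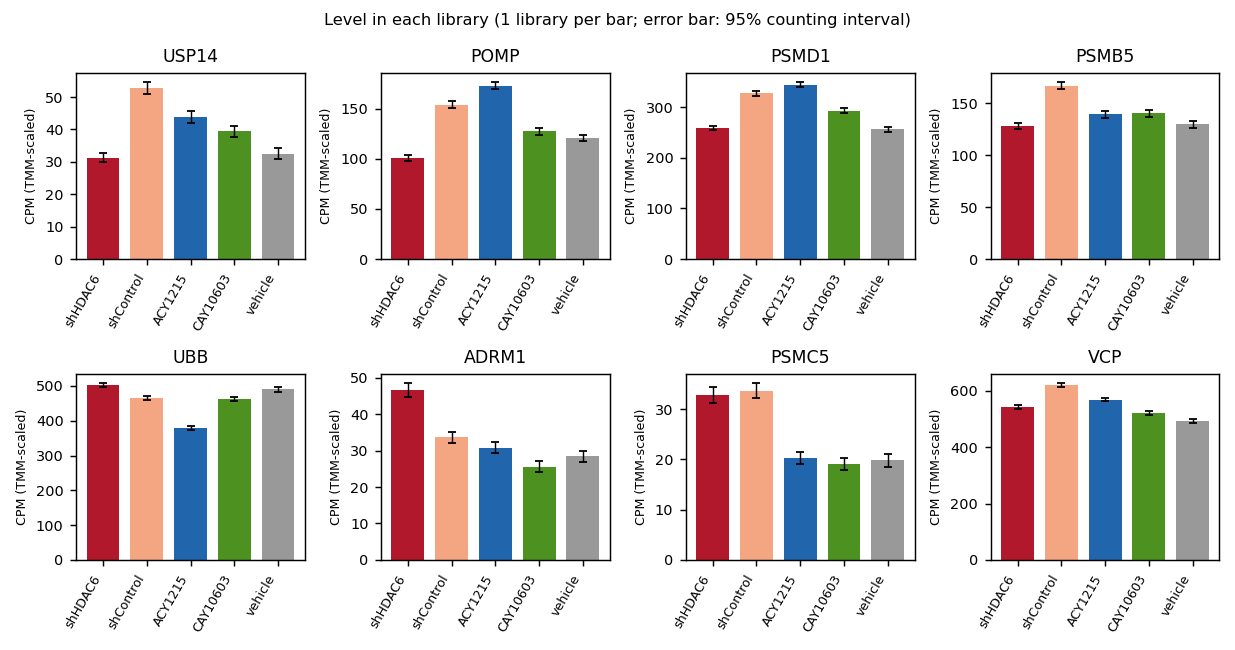
TMM-scaled CPM of 8 members in shHDAC6, shControl, ACY1215, CAY10603 and vehicle, 1 library per bar with its 95% counting interval. POMP and USP14 are lower in shHDAC6 than in shControl and higher in ACY1215 than in vehicle, and PSMC5 is at 32.8 and 33.7 CPM in the shRNA libraries and near 20 in the drug libraries.

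USP14, a deubiquitinase that docks on the cap and trims ubiquitin chains, had the largest fold of the 47 members in the hairpin pair. It was at 31.3 CPM in shHDAC6, against 52.7 CPM in shControl. With the inhibitors it was at 43.9 CPM in ACY1215 and 39.4 CPM in CAY10603, against 32.4 CPM in vehicle. The shHDAC6 and vehicle libraries were both low, and shControl was the highest. The log2 folds were -0.75 (-0.84 to -0.66) for shHDAC6, 0.43 (0.34 to 0.53) for ACY1215 and 0.28 (0.18 to 0.38) for CAY10603. Against the control of the other experiment they were -0.05 for shHDAC6, -0.26 for ACY1215 and -0.42 for CAY10603, so the sign for both inhibitors turned with the control used. UCHL5, the other deubiquitinase bound to the cap, was at 43.7 CPM in shHDAC6, against 48.3 CPM in shControl, and at 59.9 CPM in ACY1215 and 52.5 CPM in CAY10603, against 45.2 CPM in vehicle. Both inhibitor libraries were above both controls for UCHL5. Its log2 fold for shHDAC6 was -0.15 from counts and 0.07 with the authors' FPKM.

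UBB was the only member past a log2 fold of 0.32 and lower with ACY1215. It was at 379.9 CPM in ACY1215 and 463 CPM in CAY10603, against 489.9 CPM in vehicle, and at 502 CPM in shHDAC6, against 465 CPM in shControl. The ACY1215 library was the lowest of the 5, with log2 folds of -0.37 (-0.39 to -0.34) against vehicle and -0.29 against shControl. VCP was at 543 CPM in shHDAC6, against 622 CPM in shControl, and at 569 CPM in ACY1215 and 522 CPM in CAY10603, against 493 CPM in vehicle. Its folds of -0.19, 0.21 and 0.08 were each under 0.32 in size, and against the other control they were 0.14, -0.13 and -0.25. The cofactors that form a substrate-binding dimer with VCP are NPLOC4 and UFD1L. NPLOC4 had a log2 fold of 0.14 in the hairpin pair, 0.35 with ACY1215 and 0.06 with CAY10603, and UFD1L had 0.07, 0.11 and -0.12.

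**Figure D4:**
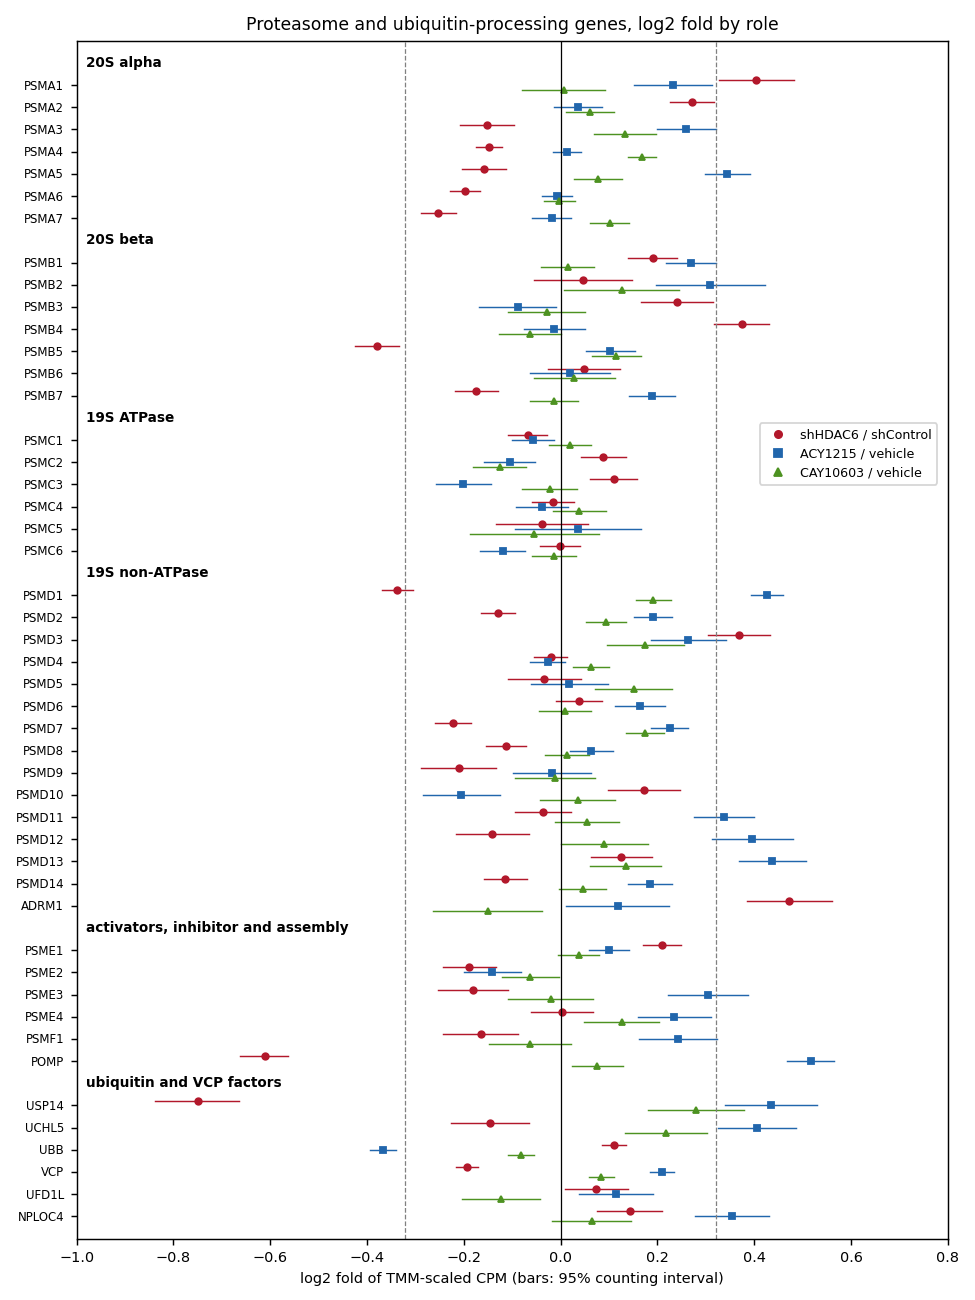
Log2 fold of TMM-scaled CPM for each of the 47 members by role, for shHDAC6 against shControl (circles), ACY1215 against vehicle (squares) and CAY10603 against vehicle (triangles), with bars for the 95% counting interval and dashed lines at a log2 fold of 0.32 in either direction. Most points lie within the dashed lines, and USP14 (-0.75) and POMP (-0.61) lie farthest out for shHDAC6.

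The hairpin pair and the ACY1215 pair share no library. Their signs were opposite in 26 of the 47 members (55.3%), against 61.4% of all genes. The 3 members past a log2 fold of 0.32 in both pairs with opposite signs were POMP, USP14 and PSMD1 (6.38%), against 9.08% of all genes.

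Other genes of the pathway were taken from a list of 54, of which 50 passed the floor of 5 CPM. In shHDAC6 against shControl, 21 were higher and 29 lower, with 6 past a log2 fold of 0.32 in each direction. Of all genes, 47.1% were higher in this pair, and 10.9% were higher and 12.4% lower by at least that mark. In ACY1215 against vehicle, 32 were higher and 18 lower, with 8 and 4 past a log2 fold of 0.32. The shares of all genes there were 51.7% higher, and 17.9% higher and 17.4% lower by at least that mark. In CAY10603 against vehicle 30 were higher, against 55.9% of all genes, and 20 lower. There, 0 were past a log2 fold of 0.32, against 6.70% of all genes. Of the 52 tested in the edgeR fit, 0 were called at an adjusted p of 0.05, as with all genes.

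NFE2L1, the factor that raises proteasome gene transcription when proteasome activity is low, had log2 folds of -0.19 for shHDAC6, -0.09 for ACY1215 and -0.17 for CAY10603. The protease DDI2, which activates NFE2L1, had 0.19, 0.19 and 0.15, and NGLY1, which deglycosylates it, had 0.02, 0.12 and -0.06. NFE2L2 had -0.01, -0.12 and -0.17. The relative NFE2L3 differed most: it was at 40.4 CPM in shHDAC6, against 49.1 CPM in shControl, and at 110.1 CPM in ACY1215 and 56.9 CPM in CAY10603, against 46.5 CPM in vehicle, a log2 fold of 1.24 for ACY1215. KEAP1, the ligase adaptor that holds NFE2L2 low, was at 12.9 CPM in ACY1215 and 26.1 CPM in CAY10603, against 24.9 CPM in vehicle, and at 30.01 CPM in shHDAC6, against 32.4 CPM in shControl. For both genes the ACY1215 library stood apart from the other 4.

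Of the other VCP cofactors, NSFL1C (p47) was at 83.0 CPM in ACY1215 and 51.3 CPM in CAY10603, against 46.1 CPM in vehicle. Its shControl level of 72.4 CPM lay nearer to ACY1215 than to vehicle. UBXN6 was at 58.6 CPM in ACY1215 and 77.8 CPM in CAY10603, against 92.8 CPM in vehicle, and SYVN1, a ligase of endoplasmic reticulum degradation, at 7.79 CPM in ACY1215 and 4.89 CPM in CAY10603, against 4.78 CPM in vehicle. RPS27A, which encodes ubiquitin fused to a ribosomal protein, had a log2 fold of -0.36 for shHDAC6 and 0.36 for ACY1215, while UBB was lower in ACY1215. SHFM1, a small cap subunit, had -0.44 for shHDAC6. The immunoproteasome gene PSMB8 had log2 folds of -0.02, -0.15 and 0.05, and PSMB9, at 5.56 CPM in shHDAC6 and 4.02 CPM in shControl, had 0.46, 0.15 and -0.01. PSMB10 was below the floor.

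**Figure D5:**
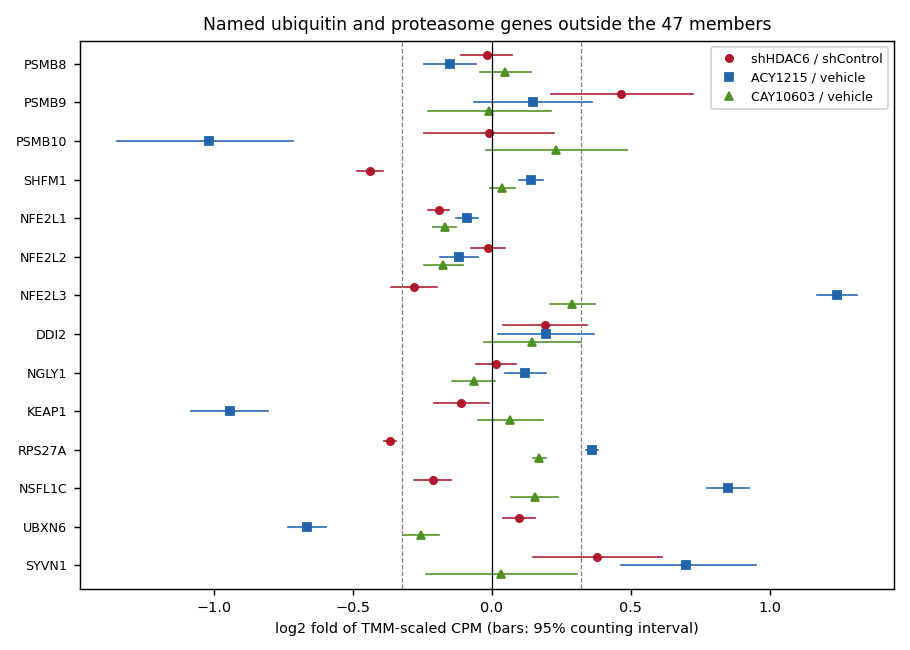
Log2 fold of TMM-scaled CPM for 14 named pathway genes outside the 47 members, for shHDAC6 against shControl (circles), ACY1215 against vehicle (squares) and CAY10603 against vehicle (triangles), with 95% counting intervals and dashed lines at a log2 fold of 0.32 in either direction. The ACY1215 points of NFE2L3 (1.24) and NSFL1C (0.85) lie to the right and those of KEAP1 (-0.94) and UBXN6 (-0.66) to the left.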

How the data were processed

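Total RNA of 5 TOV21G libraries was extracted in Trizol and prepared with a strand-specific total RNA kit, per the labels' protocols. The authors deposited expected counts per gene, as whole numbers, and FPKM values, per the file headers. Per the submitters' processing notes, RSEM 1.2.3, edgeR and hg19 were used, with no role stated for each. The strand setting is not given in the sources used here, so reads of PSMD6 and its antisense row PSMD6-AS2 cannot be told apart. The 2 blank rows were left out, and columns of unknown samples numbered 0.

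Deposited counts were tested in R 4.3.3 with edgeR 4.0.16 (TMM, robust quasi-likelihood, experiment type as covariate, genes of at least 1 CPM in at least 2 libraries, Benjamini-Hochberg adjustment), after a check on simulated data. DESeq2 1.42.0 and limma-voom (limma 3.58.1) were alternatives. Single pairs were described, without a test, by log2 folds of TMM-scaled CPM (prior count 2) over genes whose mean reached 5 CPM. Intervals at 95% (exact Poisson and exact binomial) cover counting error only, and reads without molecular identifiers are not independent molecules. Nothing says that the libraries came from separate cultures, so p-values measure only the spread between these libraries, which may be technical. Replicate numbers follow the record order. Shared transcript sequence was counted in stretches of 50 bases of GENCODE 29.

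The members and lists were chosen with earlier results of these data known. The 32 named members were those with the highest or lowest fold of a role class in 3 pairs, the 3 catalytic subunits and members with a role of their own. Other members past a log2 fold of 0.32, and PSMA2, were named after their values were seen. Further pathway genes named were a set group and those past 1.5-fold in 1 of these pairs, and some genes of these lists are not reported here.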

Additional observations from a re-analysis of the deposited data

Results flagged for a closer look

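In 21 of the 47 members (44.7%), and in 44.7% of all genes, the shHDAC6 fold had one sign and the folds of ACY1215 and CAY10603, which share the vehicle library, both had the other. The difference was not tested. Among named members with this pattern, the log2 fold of shHDAC6 against shControl was -0.75 for USP14, -0.61 for POMP, -0.38 for PSMB5, -0.34 for PSMD1, -0.19 for VCP, -0.16 for PSMA5, -0.15 for PSMA4 and -0.15 for UCHL5, each higher with both inhibitors than with vehicle. Against shControl the inhibitors gave -0.26 and -0.42 for USP14. It was 0.37 for PSMB4, 0.24 for PSMB3, 0.11 for UBB, 0.11 for PSMC3 and 0.088 for PSMC2, each lower with both inhibitors than with vehicle. The first pattern, lower in the hairpin pair, also held for medians, at -0.037 over all members and -0.15 over the alpha subunits for shHDAC6. It was -0.037 over the other members listed with the 19S cap. It was -0.17 over activators, inhibitor and maturation protein, and -0.036 over ubiquitin and VCP factors. The pattern did not hold for the beta subunits, with medians of 0.049 for shHDAC6, 0.10 for ACY1215 and 0.015 for CAY10603. Nor did it hold for the ATPases, at -0.0084, -0.081 and -0.018. The medians over all genes had the signs of the first pattern, at -0.020 for shHDAC6, 0.016 for ACY1215 and 0.023 for CAY10603.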

How the results depend on the processing

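No member passed an adjusted p of 0.05 under any of the alternatives run for repressed HDAC6 against control: DESeq2, limma-voom, no filter on low counts, no covariate, and each library left out. Over the left-out libraries the members' median was between -0.01 and 0.07. With experiment type as a covariate, leaving out shControl or shHDAC6 left only the drug libraries to set the fold. Leaving out control replicate 2 (vehicle) left only shHDAC6 against shControl. These fits restate differences within a single experiment and are no separate check. Of the fits with a treated library left out, only the one without repressed HDAC6 replicate 2 (ACY1215) called genes. These were 4 genes outside the members. The fold ranged from -0.73 to 0.34 for USP14, from -0.59 to 0.30 for POMP, from -0.24 to 0.13 for UBB and from -0.027 to 0.50 for ADRM1 over the left-out libraries. No paired analysis by replicate number was possible because these numbers follow the record order and pair no libraries. Experiment type, which ties each treatment to its control, was a covariate of the fit, and without it 0 members were called as well.

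Under total-count scaling the members' median was 0.015 for shHDAC6, -0.000746 for ACY1215 and -0.028 for CAY10603, and 0.053 for shControl against vehicle. The medians of all genes in these pairs were 0.032, -0.10, -0.044 and -0.017. Past a log2 fold of 0.32 were 3 members for ACY1215, against 36.6% of all genes. For shControl against vehicle 5 were, against 24.4%. With the authors' FPKM (pseudocount 0.1) the members' median was 0.055 for ACY1215, -0.029 for CAY10603 and 0.060 for shControl against vehicle. The medians of all genes there were -0.10, -0.045 and -0.013. Past a log2 fold of 0.32 were 4 members for ACY1215, against 36.4% of all genes. For shControl against vehicle 6 were, against 24.8%. Upper-quartile scaling gave 5 members past a log2 fold of 0.32 for CAY10603 against ACY1215, against 29.4% of all genes. It gave 6 for shControl against vehicle, against 24.7%. Against the other control the members' median was 0.11 for shHDAC6, -0.060 for ACY1215 and -0.12 for CAY10603. The medians of all genes were 0.046, -0.061 and -0.048. Past a log2 fold of 0.32 were 4 members for ACY1215, against 32.2% of all genes, and 7 for CAY10603, against 22.9%. The sign turned for 14 of the 47 members in shHDAC6, 18 in ACY1215 and 26 in CAY10603 (35.4%, 28.2% and 45.6% of all genes). Among members past a log2 fold of 0.32 with a sign that turned, the value was 0.016 for PSMD1 in shHDAC6 and -0.26 for USP14 in ACY1215. The cause was not tested. A prior count of 0.5, DESeq2 size factors and a floor of 1 CPM left each count within 1.5 times. Each treatment has 1 library, so no pair has an error beyond counting.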
